A study of Rattus norvegicus with 12 samples.

Results

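Nuclear-encoded subunits of the mitochondrial respiratory chain and of ATP synthase were followed in 12 bulk RNA sequencing libraries of rat cells labelled PC12, a line derived from an adrenal chromaffin tumour. Members were taken from the count table by gene symbol, without use of a measured value. The rule was set with earlier results of these data known. Complex I took the symbols Nduf followed by a, b, c, s or v and a number, complex II took Sdha to Sdhd, complex III took symbols starting with Uqcr, complex IV those starting with Cox4 to Cox8, and complex V those starting with Atp5. The rule left out 14 rows marked as pseudogenes by -ps. It gave 86 of 30454 rows, of which 40 belonged to complex I, 4 to complex II, 8 to complex III, 16 to complex IV and 18 to complex V. They carried 83 symbols, because Atp5mc1, Cox6b1 and Ndufb2 each stood on 2 rows.

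The 3 conditions had n = 4 libraries each, and all cells had been deprived of oxygen and glucose and then reoxygenated (OGD/R). The rTMS_MSC group was then treated with mesenchymal stem cells (MSCs) and with repetitive transcranial magnetic stimulation (rTMS) at 10 Hz, in which a coil induces currents by a changing magnetic field. The MSC group was treated with the stem cells and no stimulation, and the OGDR group had neither treatment. All libraries were labelled with 48 h. Cells without deprivation, and stimulation without stem cells, were not analysed here. The labels do not say of which species the stem cells were, how they were brought to the rat cells, or whether a group's 4 samples came from separate cultures. All p-values therefore measure only the spread between these samples. In bulk RNA, fewer cells of a type and less RNA per cell cannot be told apart.

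The respiratory chain moves electrons from NADH through complex I and from succinate through complex II to ubiquinone, then through complex III and cytochrome c to complex IV, which reduces oxygen. Complexes I, III and IV pump protons, and complex V uses the proton gradient to make ATP. A few core subunits of complexes I, III, IV and V are encoded by the mitochondrial genome, while the members described here, and complex II as a whole, are encoded in the nucleus and imported. Oxygen deprivation removes the final electron acceptor, and reoxygenation is known for bursts of reactive oxygen species from complexes I and III.

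Each library held 18246250 to 20471838 counts in genes. Levels are given in CPM, read counts relative to library size scaled by TMM, which are not corrected for transcript length, so levels of different genes are not compared. The quasi-likelihood (QL) test of edgeR was fitted to all 12 libraries over 13692 genes, p-values were adjusted by Benjamini-Hochberg, and "rose" or "fell" means adjusted p under 0.05. Log2 fold changes are given with standard errors. Of the 86 member rows 80 were tested. Ndufa4l2 (71 counts over all libraries), Cox4i2 (73 counts) and Cox7b2 (24 counts) fell under the filter, and the rows of Ndufb4l1, Cox8c and one of the Ndufb2 rows (ENSRNOG00000026616) had 0 counts in all 12 libraries. Among the lowest tested members were Cox6a2 (0.498 to 1.22 CPM in rTMS_MSC) and Ndufs6 (1.34 to 2.23 CPM). Rows that share a symbol, rows named as extra copies (Ndufa10l1, Ndufs6l1) and members with -ps copies can share reads, so the split of counts between such rows is uncertain.

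The label was checked against marker lists. Of 12 chromaffin markers 1 reached a mean of 10 CPM and 5 stayed under 1 CPM in every library, with Ddc at 0 counts. Their summed level was 211 to 227 CPM in rTMS_MSC, 201 to 245 CPM in MSC and 282 to 351 CPM in OGDR. Single markers did not all follow this sum. Of 7 tested, 2 rose and 1 fell in MSC relative to OGDR, and 2 rose and 1 fell in rTMS_MSC relative to OGDR. That was 42.9% in each, beside 20.2% and 32.4% of all tested genes. Of 10 glial and Schwann cell markers 7 reached 10 CPM, and their sum was 1090 to 1190 CPM in rTMS_MSC, 1090 to 1160 CPM in MSC and 927 to 1010 CPM in OGDR. Of the markers of the chromaffin identity that the label names, 11 of 12 thus stayed under a mean of 10 CPM. Stromal markers (Lum at 0) summed to 281 to 359 CPM in rTMS_MSC, 368 to 391 CPM in MSC and 342 to 358 CPM in OGDR. Of 7 tested stromal markers, 3 rose and 0 fell in MSC relative to OGDR (42.9%). In rTMS_MSC relative to OGDR, 3 rose and 1 fell (57.1%). Macrophage markers (Adgre1 at 0) summed to 64.4 to 78 CPM in rTMS_MSC, 51.3 to 66.8 CPM in MSC and 51.9 to 59.9 CPM in OGDR, and endothelial markers (Kdr at 0) to 84.3 to 93.8 CPM in rTMS_MSC, 89.6 to 96.8 CPM in MSC and 88.1 to 102 CPM in OGDR. The part of these differences in the results below was not tested.

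One library stood apart for these genes. rTMS_MSC 3 was the highest of the 12 libraries for 73 of the 80 tested members, while MSC 3 was the lowest for 32 and MSC 1 for 16. The median tested member deviated from its own mean over the libraries by 0.03, 0.12, 0.39 and 0.02 log2 units in rTMS_MSC 1 to 4, by -0.14, -0.02, -0.18 and -0.06 in MSC 1 to 4, and by 0.00, 0.05, -0.11 and -0.06 in OGDR 1 to 4. The 4 rTMS_MSC libraries thus lay above the 4 MSC libraries, with a wide gap between rTMS_MSC 3 and the next. Results for the members are therefore given with and without the libraries that moved them.

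**Figure D1:**
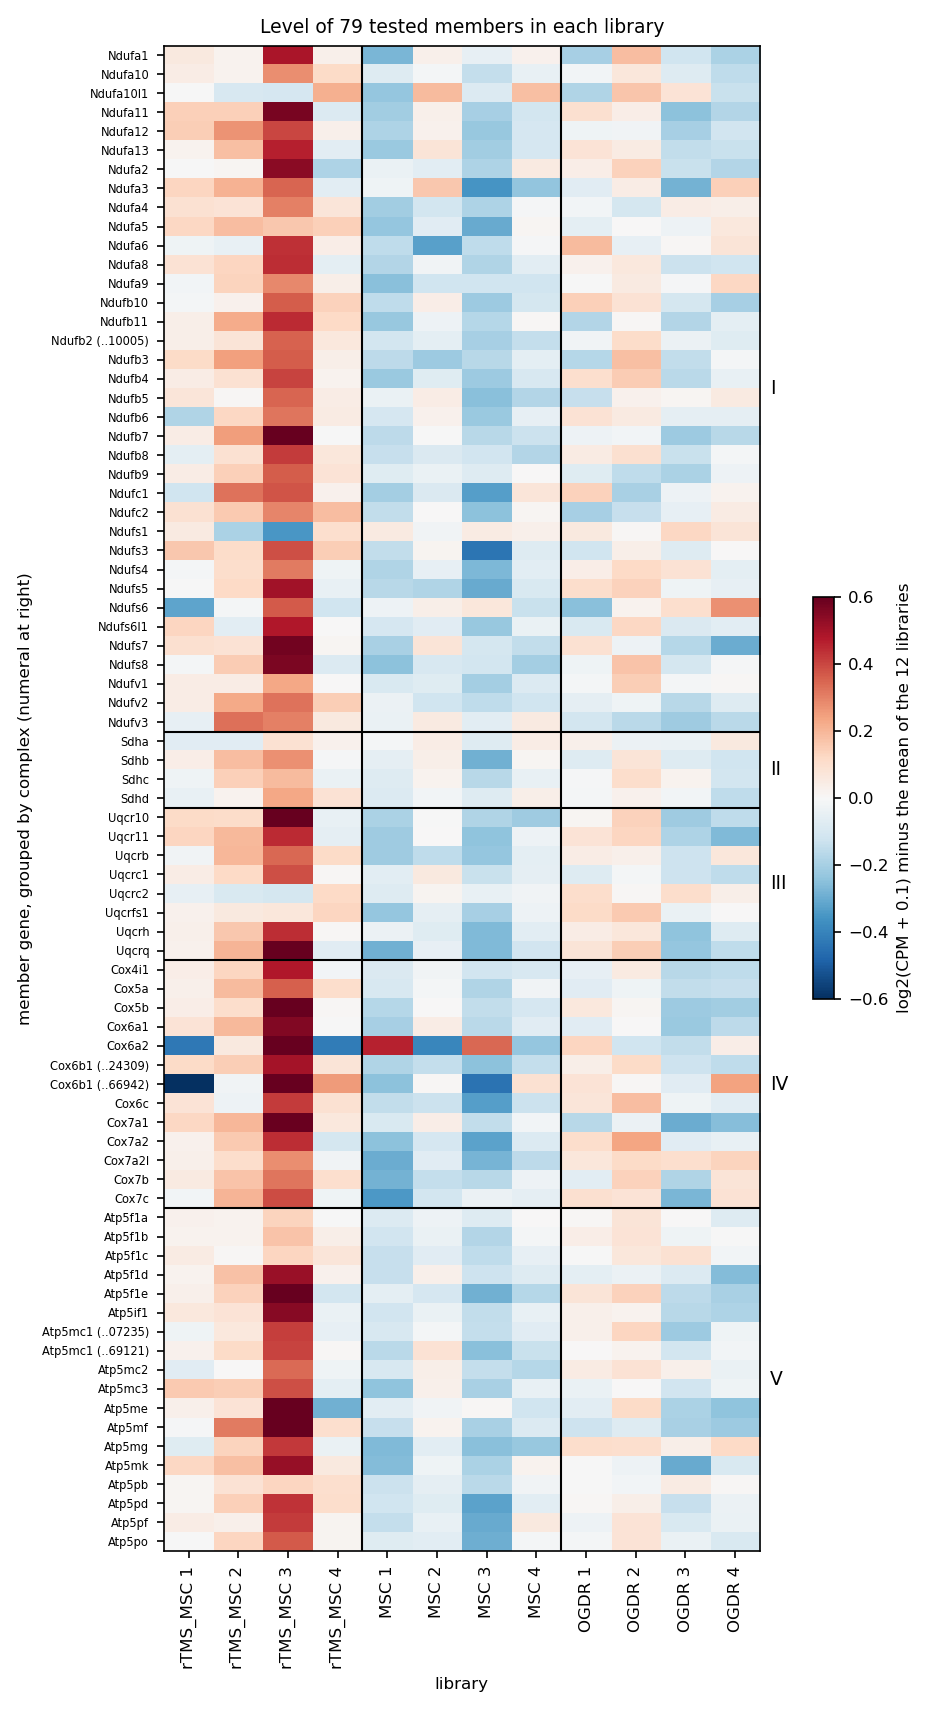
Level of 79 tested members (rows, by complex I to V) in each library (columns), as log2(CPM + 0.1) minus the mean of the 12 libraries. Red is above and blue below that mean, with colours saturating at 0.6 log2 units. The column of rTMS_MSC 3 is red in nearly every row, while Ndufs1 and Uqcrc2 are lowest there.

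Summed over the member rows, the respiratory chain made up 11140, 11650, 13760 and 11130 CPM in the rTMS_MSC libraries, 9970, 10720, 9709 and 10540 CPM in the MSC libraries and 10930, 11300, 10350 and 10450 CPM in the OGDR libraries. Every rTMS_MSC library exceeded every MSC library, and 2 of the 4 rTMS_MSC libraries fell within the range of OGDR. The group means were 11920 ± 1250 CPM in rTMS_MSC, 10230 ± 474 CPM in MSC and 10760 ± 441 CPM in OGDR (SD, n = 4 each). Without rTMS_MSC 3 the rTMS_MSC mean was 11310 ± 297 CPM (SD, n = 3), a ratio to MSC of 1.10 in place of 1.16. The ratio of rTMS_MSC to MSC was 1.19 for complex I, 1.07 for complex II, 1.16 for complex III, 1.23 for complex IV and 1.14 for complex V, and without rTMS_MSC 3 it was 1.12, 1.04, 1.11, 1.14 and 1.09. For 60 of the 80 tested members the group means ran MSC below OGDR below rTMS_MSC, and 12 others ran OGDR below MSC below rTMS_MSC.

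**Figure D2:**
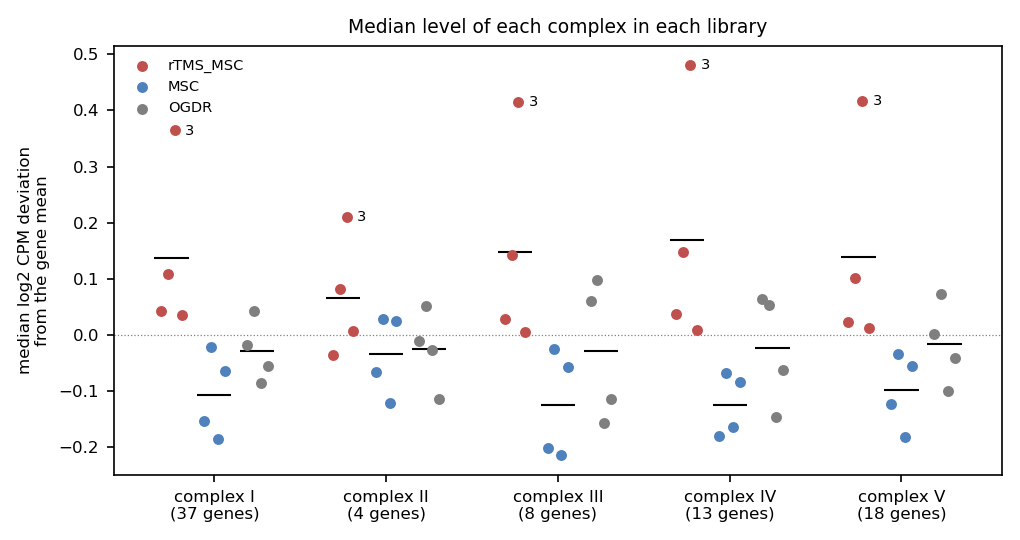
Median log2 CPM deviation of the tested members of each complex (y axis, log2 units relative to each gene's mean over 12 libraries) in each library, with rTMS_MSC in red, MSC in blue and OGDR in grey, and a bar at the mean of each group of 4. The point marked 3 is rTMS_MSC 3, at 0.36 for complex I, 0.21 for complex II, 0.41 for complex III, 0.48 for complex IV and 0.42 for complex V.

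Promoters are shown for 4 members, each 250 bases before to 50 bases after the transcription start in RefSeq's GRCr8 table, 5′ to 3′ on the gene's strand. Atp5mg, a small membrane subunit of ATP synthase, and Cox7a2l, which helps complex IV join respiratory supercomplexes, fell in MSC relative to OGDR and rose in rTMS_MSC relative to MSC. Atp5pf, a peripheral stalk subunit of ATP synthase, and Uqcrc2, a core subunit of complex III, passed in no comparison. Atp5pf came close in rTMS_MSC relative to MSC (log2 fold change 0.24, QL test, adjusted p = 0.0607). Capitals mark letters of 3 short motifs on either strand: CGCATGCG (bound by nuclear respiratory factor 1, NRF1), CCGGAAG (bound by ETS factors such as GABPA) and AAGATGG (bound by YY1). CCGGAAG and AAGATGG can overlap in their AAG, and such letters counted for both. The windows lie at chr8:54130358-54130657, minus strand (Atp5mg), chr6:16936324-16936623, plus strand (Cox7a2l), chr11:37375052-37375351, minus strand (Atp5pf) and chr1:184598990-184599289, plus strand (Uqcrc2). The counts were made on an earlier build, mRatBN7.2, and were joined to these windows by symbol.
Atp5mg: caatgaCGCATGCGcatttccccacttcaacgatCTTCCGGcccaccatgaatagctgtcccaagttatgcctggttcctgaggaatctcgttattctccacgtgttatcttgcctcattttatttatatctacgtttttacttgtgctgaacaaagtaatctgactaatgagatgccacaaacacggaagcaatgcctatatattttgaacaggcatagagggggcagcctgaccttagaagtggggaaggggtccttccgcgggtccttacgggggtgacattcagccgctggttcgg
Cox7a2l: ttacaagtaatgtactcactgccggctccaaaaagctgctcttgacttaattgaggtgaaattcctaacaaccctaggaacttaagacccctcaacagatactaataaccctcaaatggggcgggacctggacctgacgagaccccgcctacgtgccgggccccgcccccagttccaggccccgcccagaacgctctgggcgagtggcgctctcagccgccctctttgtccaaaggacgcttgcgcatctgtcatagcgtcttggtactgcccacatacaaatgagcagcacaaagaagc
Atp5pf: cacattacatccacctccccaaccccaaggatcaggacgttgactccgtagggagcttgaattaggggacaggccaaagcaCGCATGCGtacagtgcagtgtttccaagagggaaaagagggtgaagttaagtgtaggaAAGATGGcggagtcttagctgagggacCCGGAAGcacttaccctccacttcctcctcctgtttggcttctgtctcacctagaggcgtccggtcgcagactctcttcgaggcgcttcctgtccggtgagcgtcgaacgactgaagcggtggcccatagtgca
Uqcrc2: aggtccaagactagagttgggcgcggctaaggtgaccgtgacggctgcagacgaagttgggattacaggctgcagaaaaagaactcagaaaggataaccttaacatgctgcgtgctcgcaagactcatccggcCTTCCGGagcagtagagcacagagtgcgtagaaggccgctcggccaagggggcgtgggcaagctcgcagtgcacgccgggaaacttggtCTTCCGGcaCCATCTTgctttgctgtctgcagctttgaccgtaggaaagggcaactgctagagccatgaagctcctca

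Atp5mg held the NRF1 and ETS letters, Atp5pf held all 3 motifs, Uqcrc2 held ETS and YY1 letters, and Cox7a2l held none of them in this window. The table gave a promoter for 72 of the 83 member symbols, and 68 of these were tested. Among those 68, CGCATGCG stood in 10.3%, CCGGAAG in 29.4% and AAGATGG in 25% of windows, against 3.81%, 18.4% and 8.58% of 9105 windows of all tested genes and 1.88%, 9.49% and 7.38% of all 24206 windows in the table. Complex V held 5 of the 7 member windows with CGCATGCG, among 16. Of 41 members with a promoter that rose in rTMS_MSC relative to MSC, 16 (39%) held any of the 3 motifs, against 18 of 27 (66.7%) of the other tested members. The share was thus lower among the members that rose than among the others, and both lay above the 27.5% of windows of all tested genes. Which members rose depended on single libraries, as given below. A match is a description of the sequence, not a site shown to be bound.

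The comparison of rTMS_MSC with MSC asked what stimulation added to the stem cells. Most tested subunits of complexes I, III, IV and V were higher in rTMS_MSC, by under 0.5 log2 units, and no subunit of complex II passed. Of the 80 tested members 48 rose and 1 fell (edgeR QL test, adjusted p under 0.05), where 7.14% of all tested genes rose and 10.9% fell (18.1% in either direction). The median log2 fold change of the tested members was 0.27, against 0.02 over all tested genes, and 75 of 80 lay above 0. The 4 rTMS_MSC values all exceeded the 4 MSC values for 37 members (8.25% of all tested genes) and all lay below them for 1 (10.8%). The number that rose was 20 of 37 in complex I, 0 of 4 in complex II, 6 of 8 in complex III, 10 of 13 in complex IV and 12 of 18 in complex V, and the 1 fall was in complex I. The median log2 fold changes of complexes I to V were 0.27, 0.12, 0.29, 0.31 and 0.25.

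The number of members that rose depended on single libraries. It was 20 without rTMS_MSC 3, 18 without MSC 1, 15 without MSC 3 and 32 without rTMS_MSC 2, and 4 when rTMS_MSC 3 and MSC 3 were both left out, a setting chosen after the data were seen. The 4 members were Cox6b1, Ndufv2, Cox7b and Ndufa9. Among all tested genes, 977 of 13692 rose in the full fit and 475 of 13848 without rTMS_MSC 3. It was 394 of 13836 without MSC 1, 282 of 13847 without MSC 3 and 578 of 13838 without rTMS_MSC 2. Without both libraries numbered 3 it was 154 of 13808. For complexes I to V the numbers that rose were 9, 0, 2, 5 and 4 without rTMS_MSC 3, 9, 0, 1, 5 and 3 without MSC 1, 8, 0, 1, 4 and 2 without MSC 3, and 2, 0, 0, 2 and 0 without both libraries numbered 3. The median log2 fold change was 0.16 without rTMS_MSC 3 and 0.14 without both, where 73 of 81 tested members lay above 0. Left out in turn, no single library removed the call of 14 members: Ndufa4, Ndufa5, Ndufa9, Ndufa12, Ndufb3, Ndufs3, Ndufv2, Uqcrb, Cox6b1, Cox6c, Cox7a2l, Cox7b, Atp5mg and Atp5pd. Every other call in this comparison was lost without at least 1 of the libraries.

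**Figure D3:**
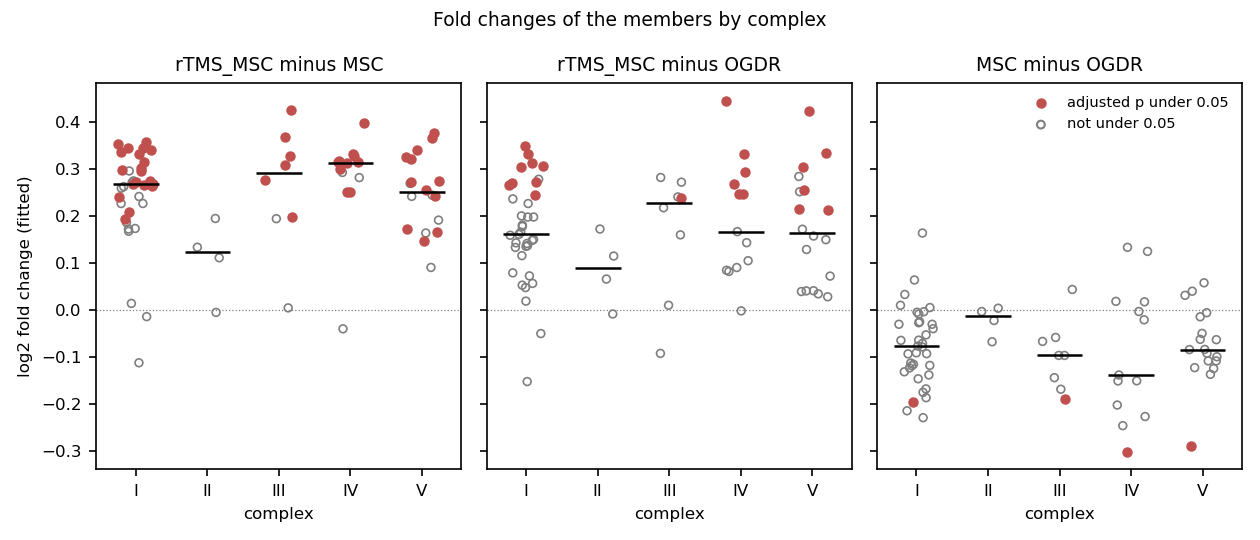
Fitted log2 fold change (y axis) of 79 tested members by complex (x axis) in the 3 comparisons, with filled red points where the adjusted p was under 0.05, open grey points where it was not, and a black bar at the median of all tested members of each complex. Red points above 0 number 48 in rTMS_MSC minus MSC and 22 in rTMS_MSC minus OGDR, and the 4 red points in MSC minus OGDR lie below 0.

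In complex I, the core subunits carry the flavin and iron-sulfur clusters that pass electrons from NADH to ubiquinone. Ndufv2, an iron-sulfur subunit of the NADH-binding module, had 81.3, 92.3, 98.6 and 87.2 CPM in rTMS_MSC, against 76.7, 72.4, 70.9 and 72.5 CPM in MSC. The groups did not overlap and the lowest rTMS_MSC value was that of library 1. It rose by 0.30 ± 0.07 (QL test, adjusted p = 0.00575; 0.25 and adjusted p = 0.0132 without rTMS_MSC 3). Ndufs3, a core subunit of the arm that reaches into the matrix, had 75.4, 72.8, 88.4 and 74.9 CPM in rTMS_MSC, against 60.9, 68.4, 49.8 and 64.0 CPM in MSC, with MSC 3 well below the other libraries. It rose by 0.36 ± 0.09 (adjusted p = 0.00872). The flavin-carrying Ndufv1 rose by 0.19 ± 0.06 (adjusted p = 0.0352; 0.14 and adjusted p = 0.114 without rTMS_MSC 3), and Ndufs8 rose by 0.34. Ndufs7, which holds the last iron-sulfur cluster before ubiquinone, stood at 0.30 ± 0.11 and did not pass (adjusted p = 0.059).

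Ndufs1, the largest core subunit, did not pass. It had 136, 115, 103 and 141 CPM in rTMS_MSC, against 136, 129, 136 and 134 CPM in MSC, so that rTMS_MSC 3, high for most members, was the lowest library here. Its log2 fold change was -0.11 ± 0.08 (adjusted p = 0.311).

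Accessory subunits surround the core of complex I and serve its assembly and stability. Of 27 tested 15 rose and 0 fell, and all 27 lay above 0; 6 rose without rTMS_MSC 3, 6 without MSC 1 and 5 without MSC 3. The named ones with the smallest p were Ndufa12 (0.34 ± 0.08, adjusted p = 0.00651) and Ndufa5 (0.30 ± 0.07, adjusted p = 0.00782). Ndufa12 had 106, 115, 126 and 97.9 CPM in rTMS_MSC, against 84.4, 97.5, 81.9 and 89.3 CPM in MSC, and its groups were separate by a narrow margin. Ndufa5 had 70.6, 73.8, 72.6 and 71.6 CPM in rTMS_MSC, against 55.1, 61.7, 52.5 and 65.4 CPM in MSC; its groups did not overlap, and rTMS_MSC 3 did not stand out. Ndufa9, which binds near the ubiquinone channel, rose by 0.27 ± 0.07 (adjusted p = 0.00946). The other accessory subunits that rose were Ndufa8, Ndufa11, Ndufb2, Ndufb3, Ndufb4, Ndufb7, Ndufb8, Ndufb9, Ndufb11, Ndufc2, Ndufs4 and Ndufs5, with log2 fold changes between 0.21 (Ndufb9) and 0.35 (Ndufb7). Ndufa4, named after complex I but placed as a subunit of complex IV, had 152, 151, 176 and 150.3 CPM in rTMS_MSC, against 124, 133, 126 and 142 CPM in MSC and rose by 0.27 ± 0.06 (adjusted p = 0.00877). Ndufab1, the acyl carrier protein that the symbol rule does not cover, rose by 0.27 ± 0.08 (adjusted p = 0.0189).

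Complex II oxidises succinate to fumarate and belongs to both the respiratory chain and the citric acid cycle. None of its 4 subunits passed (edgeR QL test), and 2 had an unadjusted p under 0.05. DESeq2 and limma voom also called 0. The flavin subunit Sdha had 169, 169, 188 and 179.9 CPM in rTMS_MSC, against 176, 183, 168 and 182 CPM in MSC, and these ranges overlapped almost fully (-0.01 ± 0.05, adjusted p = 0.958). The iron-sulfur subunit Sdhb had 131, 145, 154 and 127 CPM in rTMS_MSC, against 123, 131, 104 and 129 CPM in MSC, with MSC 3 lowest (0.19 ± 0.08, adjusted p = 0.0761). The membrane anchors Sdhc and Sdhd stood at 0.13 ± 0.06 and 0.11 ± 0.06 (adjusted p = 0.146 and 0.222). For Sdhb the standard error leaves room for a rise of the size seen in the other complexes.

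Complex III passes electrons from ubiquinol to cytochrome c, and its small subunits rose when all libraries were used. These 5 small subunits, Uqcrb, Uqcrq, Uqcr10, Uqcrh and Uqcr11, rose, by 0.28 (Uqcrh) to 0.43 (Uqcrq). Only 1 of the 5 rose without rTMS_MSC 3, MSC 1 or MSC 3, and 0 without both libraries numbered 3. Uqcrb, which supports the ubiquinone site, had 79.5, 92.6, 103 and 87.6 CPM in rTMS_MSC, against 69.5, 72.7, 68.8 and 77.5 CPM in MSC. Its groups did not overlap, and it rose by 0.33 ± 0.07 (adjusted p = 0.00651). Uqcrq had 77.1, 87.4, 124 and 72.2 CPM in rTMS_MSC, against 62.1, 73.3, 63.1 and 69.9 CPM in MSC; its groups overlapped and rTMS_MSC 3 was far above the rest. Its rise of 0.43 ± 0.13 (adjusted p = 0.0264) became 0.23 (adjusted p = 0.0835) without that library. Of the 3 Rieske and core subunits only Uqcrfs1, the Rieske iron-sulfur protein, rose (0.20 ± 0.06, adjusted p = 0.0327), and none of the 3 did without MSC 1 or MSC 3. The core subunits stood at 0.19 ± 0.07 (Uqcrc1, adjusted p = 0.058) and 0.00 ± 0.06 (Uqcrc2, adjusted p = 0.966). Uqcrc2 had 163, 158, 157 and 183 CPM in rTMS_MSC, against 159.6, 170.1, 163 and 166 CPM in MSC, again with rTMS_MSC 3 lowest. The difference between small and core subunits was not tested.

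Complex IV transfers electrons from cytochrome c to oxygen, and most of its tested nuclear subunits rose with all libraries in the fit. Cox6b1, which faces the intermembrane space near the cytochrome c site, had the smallest p of any member. It had 160.1, 164, 209 and 156 CPM in rTMS_MSC, against 130.3, 134, 125 and 134 CPM in MSC (ENSRNOG00000024309). Every rTMS_MSC value was above every MSC value, with rTMS_MSC 3 highest. It rose by 0.40 ± 0.08 (adjusted p = 0.00361), and by 0.27 (adjusted p = 0.0144) with rTMS_MSC 3 and MSC 3 left out. The other row of Cox6b1 (ENSRNOG00000066942) held 4.28 to 10.8 CPM in rTMS_MSC and 4.82 to 7.01 CPM in MSC and did not pass (adjusted p = 0.336). Cox7b, a small structural subunit, had 102, 111, 123 and 106 CPM in rTMS_MSC, against 80.9, 89.3, 87.9 and 96.5 CPM in MSC and rose by 0.32 ± 0.08 (adjusted p = 0.00883). Cox4i1, the common isoform of the regulatory subunit that binds ATP, had 390.0, 414, 529 and 374 CPM in rTMS_MSC, against 357, 374, 349.5 and 354 CPM in MSC. It rose by 0.25 ± 0.08 (adjusted p = 0.0383), but stood at 0.13 (adjusted p = 0.126) without rTMS_MSC 3. Cox5a, Cox5b, Cox6a1, Cox6c, Cox7a1 and Cox7a2 rose as well, by 0.25 (Cox5a) to 0.33 (Cox6c). Cox7c came just short (0.28 ± 0.10, adjusted p = 0.0516).

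Cox7a2l had 91.5, 96.2, 109 and 88.1 CPM in the rTMS_MSC libraries, 72.8, 85.4, 73.8 and 80.2 CPM in the MSC libraries and 93.9, 97.0, 95.9 and 98.1 CPM in the OGDR libraries. The MSC libraries were the lowest of the 3 groups without overlap, and only rTMS_MSC 3 exceeded all OGDR libraries. It rose by 0.30 ± 0.07 in rTMS_MSC relative to MSC (adjusted p = 0.00724). Isoforms of complex IV that are known from heart and skeletal muscle, lung or testis were mostly scarce. Cox6a2, the heart and muscle form, stayed under 2 CPM with a log2 fold change of -0.04 ± 0.39 (adjusted p = 0.954), and Cox4i2, Cox7b2 and Cox8c were not tested. Cox7a1, also a heart and muscle form, was well covered and is described below. The ubiquitous Cox8a had no row of that symbol in the table used here.

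Complex V has a catalytic F1 part, a peripheral stalk that holds it, a rotating c-ring and small membrane subunits. Of 5 F1 subunits 4 rose (Atp5f1b, Atp5f1c, Atp5f1d and Atp5f1e), and 0 rose without rTMS_MSC 3, without MSC 1 or without MSC 3. The catalytic subunit Atp5f1b had 1597, 1595, 1768 and 1614 CPM in rTMS_MSC, against 1452, 1528, 1393 and 1560 CPM in MSC; the groups did not overlap, and rTMS_MSC 3 was the highest. It rose by 0.15 ± 0.05 (adjusted p = 0.0446), and stood at 0.11 (adjusted p = 0.11) without rTMS_MSC 3. Its partner Atp5f1a did not pass (0.09 ± 0.05, adjusted p = 0.188). In the stalk Atp5pb, Atp5pd and Atp5po rose (2 without rTMS_MSC 3, 1 without MSC 1 or MSC 3), and Atp5pf did not pass (0.24 ± 0.09, adjusted p = 0.0607). Atp5pd had 266, 292, 357 and 284 CPM in rTMS_MSC, against 243, 251, 212 and 253 CPM in MSC and rose by 0.32 ± 0.08 (adjusted p = 0.00829).

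The c-ring protein is made from several genes with the same mature product. Atp5mc3 rose by 0.28 ± 0.08 (adjusted p = 0.0195), and so did 1 of the 2 rows of Atp5mc1 (ENSRNOG00000069121, 0.26). The other row of Atp5mc1 (ENSRNOG00000007235) and Atp5mc2 stood at 0.19 and 0.16 and did not pass. No c-ring row passed without rTMS_MSC 3, MSC 1 or MSC 3. Among small membrane subunits Atp5mf, Atp5mg and Atp5mk rose, by 0.37 ± 0.09, 0.32 ± 0.08 and 0.34 ± 0.10 (adjusted p = 0.0133, 0.0125 and 0.0231), and Atp5me did not pass (0.24 ± 0.15, adjusted p = 0.275). Atp5if1, the inhibitor that stops ATP synthase from running backward when the proton gradient fails, had 121, 122, 169 and 113 CPM in rTMS_MSC, against 107, 113, 104 and 112 CPM in MSC. It came just short (0.27 ± 0.09, adjusted p = 0.0533), and stood at 0.12 (adjusted p = 0.215) without rTMS_MSC 3.

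**Figure D4:**
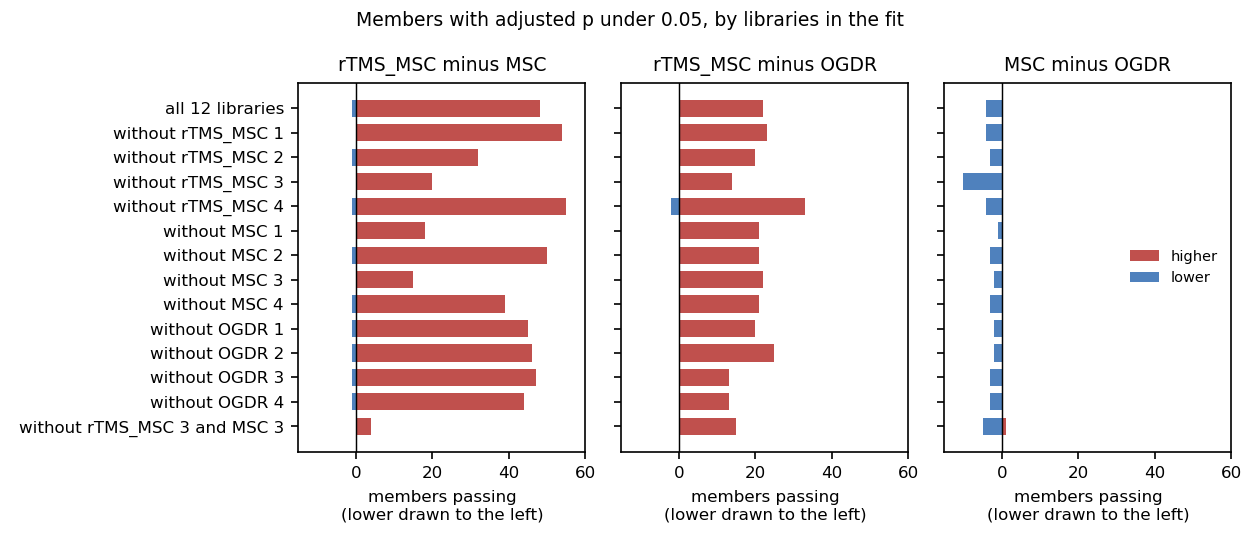
Number of members with adjusted p under 0.05 (x axis; lower ones drawn to the left of 0) in each comparison, for the fit of all 12 libraries and with each library left out (rows), and with rTMS_MSC 3 and MSC 3 both left out. In rTMS_MSC minus MSC the higher count falls to 20 without rTMS_MSC 3, 18 without MSC 1, 15 without MSC 3 and 4 without both libraries numbered 3. Rises among all tested genes numbered 475, 394, 282 and 154 in those fits, against 977 in the full fit.

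The comparison of rTMS_MSC with OGDR set the combined treatment against untreated deprived cells. Members that passed were higher in rTMS_MSC. Of 80 tested members 22 rose and 0 fell, where 16.2% of all tested genes rose and 16.2% fell (32.4% in either direction). No member had an unadjusted p under 0.05 in the lower direction, and neither DESeq2 nor limma voom called any lower. The median log2 fold change was 0.16, against 0.01 over all tested genes, and 74 of 80 lay above 0. The 4 rTMS_MSC values all exceeded the 4 OGDR values for 16 members, where this held for 15.5% of all tested genes, and all lay below them for 0 members (14.8%). Rises numbered 9 of 37 in complex I, 0 of 4 in complex II, 1 of 8 in complex III, 6 of 13 in complex IV and 6 of 18 in complex V. The median log2 fold changes of complexes I to V were 0.161, 0.09, 0.228, 0.167 and 0.165. In complex II, 1 subunit had an unadjusted p under 0.05, and DESeq2 and limma voom called 0.

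Without rTMS_MSC 3 the median was 0.08, 14 members rose (7, 0, 1, 3 and 3 in complexes I to V) and 64 of 81 lay above 0. Without OGDR 3 or OGDR 4, 13 of 81 rose in each case, and without rTMS_MSC 4, 33 rose and 2 fell (Ndufs1 and Uqcrc2). Without rTMS_MSC 3 and MSC 3, 15 rose. Of all tested genes, 1939 of 13848 rose without rTMS_MSC 3, 1759 of 13841 without OGDR 3 and 1811 of 13831 without OGDR 4. Without rTMS_MSC 4, 2294 of 13848 rose and 2389 fell, and without both libraries numbered 3, 1984 of 13808 rose. The 12 that passed with any single library left out were Ndufa12, Ndufb7, Ndufb9, Ndufb11, Ndufc2, Ndufv2, Ndufv3, Uqcrc1, Cox5a, Cox6a1, Cox7a1 and Atp5mf, and each of the other calls was lost without at least 1 library.

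Cox7a1 had 217, 228, 299.8 and 208 CPM in the rTMS_MSC libraries, 187, 204, 179 and 196 CPM in the MSC libraries and 177, 194, 162 and 166 CPM in the OGDR libraries. All rTMS_MSC values exceeded all OGDR values, and the MSC libraries lay between and overlapped OGDR. It rose by 0.45 ± 0.09 relative to OGDR (QL test, adjusted p = 0.000752), and by 0.32 (adjusted p = 0.000324) without rTMS_MSC 3. Atp5mf, a small membrane subunit of ATP synthase, had 101, 126, 154 and 109 CPM in the rTMS_MSC libraries, 92.0, 103, 88.6 and 95.8 CPM in the MSC libraries and 93.0, 95.9, 88.6 and 87.0 CPM in the OGDR libraries. Its rTMS_MSC values also all exceeded those of OGDR, and it rose by 0.42 ± 0.09 (adjusted p = 0.00199).

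Ndufv3, an accessory subunit of the NADH-binding module, had 69.9, 90.8, 89.0 and 75.2 CPM in the rTMS_MSC libraries, 70.2, 75.0, 69.1 and 74.9 CPM in the MSC libraries and 66.9, 64.5, 62.2 and 64.6 CPM in the OGDR libraries. Libraries rTMS_MSC 2 and 3 were highest and all OGDR libraries lay below the other groups, which overlapped each other. It rose by 0.33 ± 0.08 relative to OGDR (adjusted p = 0.0026). Ndufb9, an accessory subunit of the membrane arm, rose by 0.27 ± 0.06 (adjusted p = 0.00305) and Ndufv2 by 0.27 ± 0.07 (adjusted p = 0.00358). The core subunits Ndufs3 and Ndufs7 rose by 0.24 and 0.30 (adjusted p = 0.0341 and 0.0358), and neither passed without rTMS_MSC 3 (adjusted p = 0.0992 and 0.159). Ndufa12, Ndufb7, Ndufb11 and Ndufc2 were the other members of complex I that rose.

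Uqcrc1, a core subunit of complex III, had 310.1, 327, 392 and 302 CPM in the rTMS_MSC libraries, 287, 313, 273 and 289 CPM in the MSC libraries and 285, 298, 275 and 270.2 CPM in the OGDR libraries. The rTMS_MSC values were above all OGDR values while the MSC values overlapped OGDR, and it rose by 0.24 ± 0.07 (adjusted p = 0.0129). Uqcrc2 stood at -0.09 ± 0.06 (adjusted p = 0.228) and Uqcrfs1 at 0.01 ± 0.06 (adjusted p = 0.922). In complex IV, Cox4i1, Cox5a, Cox5b, Cox6a1 and Cox6b1 rose along with Cox7a1, by 0.25 (Cox6b1) to 0.33 (Cox6a1), while the values were -0.00 ± 0.07 for Cox7a2l (adjusted p = 0.988) and 0.08 ± 0.10 for Cox7a2 (adjusted p = 0.554). In complex V, Atp5f1d, Atp5mk, Atp5pd, Atp5mc3 and the inhibitor Atp5if1 rose besides Atp5mf. Atp5if1 rose by 0.26 ± 0.09 (adjusted p = 0.0447), and stood at 0.11 (adjusted p = 0.211) without rTMS_MSC 3. Sdhb had the smallest p of complex II (0.17 ± 0.08, adjusted p = 0.0877).

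The comparison of MSC with OGDR asked what the stem cells changed in deprived cells. Members of the respiratory chain differed little, and the few that passed were lower in MSC. Of 80 tested members 0 rose and 4 fell, where 11.6% of all tested genes rose and 8.63% fell (20.2% in either direction). At an unadjusted p under 0.05, 1 member was higher and 12 were lower, and DESeq2 and limma voom called 0 higher and 6 and 11 lower. The median log2 fold change was -0.08, against 0.00 over all tested genes, and 15 of 80 lay above 0. The MSC values all lay above the OGDR values for 2 members (13.2% of all tested genes) and all below for 9 (11.5%). Complexes I, III, IV and V had 1 fall each and complex II had 0, with medians of -0.08, -0.10, -0.14, -0.08 and, for complex II, -0.01 (0.02 without MSC 3). No complex II subunit had an unadjusted p under 0.05.

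The 4 that fell were Cox7a2l (-0.30 ± 0.07, adjusted p = 0.00348), Atp5mg (-0.29 ± 0.08, adjusted p = 0.0166), Uqcrfs1 (-0.19 ± 0.06, adjusted p = 0.0354) and Ndufa9 (-0.20 ± 0.07, adjusted p = 0.0393). Cox7a2l alone passed with every single library left out. The number of falls was 1 without MSC 1, 2 without MSC 3, OGDR 1 or OGDR 2, and 10 of 81 without rTMS_MSC 3. Of all tested genes, 1181 of 13692 fell in the full fit and 1566 of 13848 without rTMS_MSC 3. It was 902 of 13836 without MSC 1 and 984 of 13847 without MSC 3. Without OGDR 1 it was 982 of 13849, and without OGDR 2 it was 932 of 13848. With rTMS_MSC 3 and MSC 3 both left out, 1 member (Cox7a1, 0.17) rose and 5 fell (Ndufa9, Cox6c, Cox7a2, Cox7a2l and Atp5mg).

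Atp5mg had 132, 153, 187 and 136 CPM in the rTMS_MSC libraries, 116, 133, 117 and 119 CPM in the MSC libraries and 150.1, 149, 143 and 151 CPM in the OGDR libraries. All MSC values lay below all OGDR values, and the rTMS_MSC values spread from below to above the OGDR range. Uqcrfs1 had 118, 121, 122 and 127 CPM in the rTMS_MSC libraries, 99.0, 112, 101 and 114 CPM in the MSC libraries and 126, 129.9, 113 and 116 CPM in the OGDR libraries, with MSC 4 just above OGDR 3. Ndufa9 had 118, 131, 146 and 122 CPM in the rTMS_MSC libraries, 100.2, 109.8, 109.6 and 109.6 CPM in the MSC libraries and 119, 124, 119 and 130.1 CPM in the OGDR libraries; MSC 1 was the lowest of all libraries, and all MSC values lay below those of OGDR. Because both comparisons use the MSC libraries, a low MSC value moves them in opposite directions. Side by side, rTMS_MSC relative to MSC gave 0.30 for Cox7a2l, 0.32 for Atp5mg, 0.20 for Uqcrfs1 and 0.27 for Ndufa9, and rTMS_MSC relative to OGDR, in which MSC has no part, gave -0.00, 0.03, 0.01 and 0.07, with no call; the 0.03 of Atp5mg was -0.08 without rTMS_MSC 3. In the remaining panel, Ndufv1 stood at -0.15, Cox7a2 at -0.25, Cox4i1 at -0.00, Cox6a1 at 0.02, Atp5f1b at -0.11 and Atp5f1a at -0.05, none of which passed.

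Over the 3 comparisons 53 tested members passed at least once and 27 never did. The 27 comprised all 4 Sdh subunits, 14 members of complex I, Uqcrc2, Cox6a2, Cox7c, the second Cox6b1 row, and in complex V Atp5f1a, Atp5mc2, Atp5me, Atp5pf and 1 Atp5mc1 row. The complex I members were Ndufa1, Ndufa2, Ndufa3, Ndufa6, Ndufa10, Ndufa13, Ndufb5, Ndufb6, Ndufb10, Ndufc1, Ndufs1, Ndufs6 and the extra copies Ndufa10l1 and Ndufs6l1.

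Other gene sets moved with the members in the same libraries. Of 79 tested cytosolic ribosomal protein genes 55 rose and 0 fell in rTMS_MSC relative to MSC (median 0.27), 1 rose in rTMS_MSC relative to OGDR (median 0.04), and 0 rose and 34 fell in MSC relative to OGDR (median -0.23). Without rTMS_MSC 3 the counts in rTMS_MSC relative to MSC and in MSC relative to OGDR became 31 higher and 56 lower. In rTMS_MSC 3 their median deviation was 0.37 log2 units, close to the 0.39 of the members. Of 72 tested mitochondrial ribosomal protein genes 22 rose in rTMS_MSC relative to MSC (median 0.23; 8 without rTMS_MSC 3), 12 rose relative to OGDR (median 0.13; 7 without rTMS_MSC 3), and 1 rose and 6 fell in MSC relative to OGDR (10 fell without rTMS_MSC 3), with a median deviation of 0.31 in rTMS_MSC 3. The high values of rTMS_MSC 3 thus extended to the ribosomal protein genes, and their part in the members' result was not tested.

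Subunits encoded by the mitochondrial genome followed another order. Their summed level was 30930 ± 1650 CPM in rTMS_MSC, 27420 ± 2130 CPM in MSC and 33970 ± 1990 CPM in OGDR (SD, n = 4 each). Of the 13 genes 5 rose and 0 fell in rTMS_MSC relative to MSC, 0 rose and 7 fell in rTMS_MSC relative to OGDR, and 0 rose and 12 fell in MSC relative to OGDR. Without rTMS_MSC 3, 8 rose in rTMS_MSC relative to MSC and 5 fell relative to OGDR. The library rTMS_MSC 3 was not high for them, with a median deviation of -0.09 log2 units. Mt-nd3, a complex I subunit, rose by 0.40 ± 0.07 in rTMS_MSC relative to MSC (adjusted p = 0.00178), as did Mt-atp6 of ATP synthase (0.31) and Mt-co2 of complex IV (0.29). The complex I subunits Mt-nd4l and Mt-nd5 fell by 0.62 and 0.57 on the log2 scale in rTMS_MSC relative to OGDR (adjusted p = 0.000622 and 0.000671), and Mt-nd2 by 0.20. In MSC relative to OGDR, Mt-atp6, Mt-cyb and Mt-nd2 had the smallest p (-0.43, -0.34 and -0.36). In rTMS_MSC relative to OGDR the nuclear-encoded members were thus higher at the median while those of the mitochondrial genome were lower (0.16 against -0.19 log2 units).

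**Figure D5:**
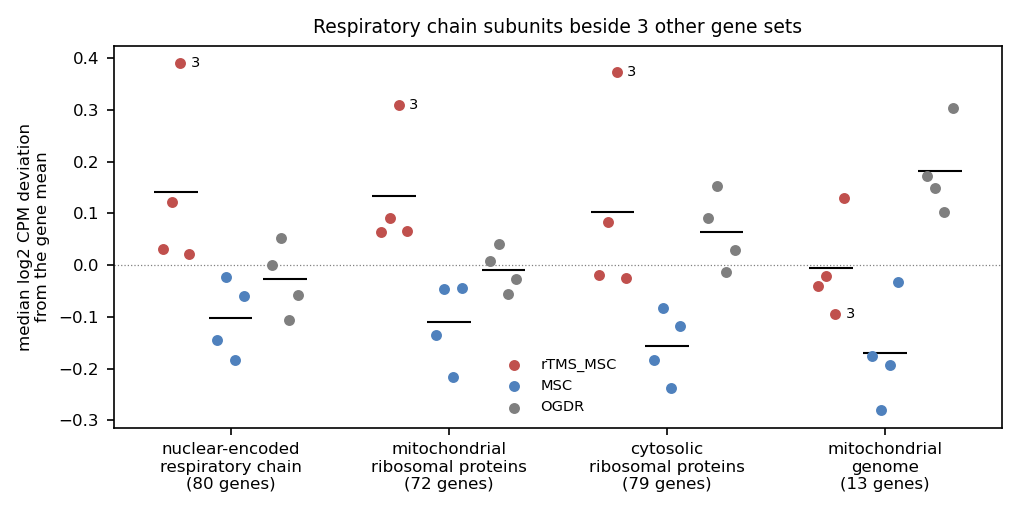
Median log2 CPM deviation (y axis, log2 units relative to each gene's mean over 12 libraries) of the nuclear-encoded respiratory chain members, the mitochondrial and cytosolic ribosomal protein genes and the mitochondrial genome in each library, with rTMS_MSC in red, MSC in blue, OGDR in grey, and a bar at each group's mean. rTMS_MSC 3 (marked 3) is the highest library at 0.39, 0.31 and 0.37 in the nuclear sets and stands at -0.09 for the mitochondrial genome, where OGDR is highest.

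Factors that assemble the complexes are given beside the share of all tested genes that passed. That share was 18.1% in rTMS_MSC relative to MSC, 32.4% in rTMS_MSC relative to OGDR and 20.2% in MSC relative to OGDR. Of 18 complex I assembly factors 1 rose (Timmdc1, 0.35 ± 0.10, adjusted p = 0.0266) and 0 fell in rTMS_MSC relative to MSC, 1 rose (Timmdc1) and 0 fell relative to OGDR, and 1 fell in MSC relative to OGDR (Ndufaf4, -0.31), which is 5.56% each. The rise of Timmdc1 relative to MSC was lost without rTMS_MSC 3, MSC 1 or MSC 3, and no complex I factor fell in MSC relative to OGDR without MSC 1. Among 4 rows for complex II both rows of Sdhaf1, which inserts iron-sulfur clusters, rose in rTMS_MSC relative to OGDR (0.78 and 0.75). Both also rose in MSC relative to OGDR (0.51 and 0.47). The 50% of rows in each comparison thus stands for 1 symbol, whose rows can share reads. No factor of complex III (9 tested) passed in any comparison by the QL test, with 2, 1 and 0 at an unadjusted p under 0.05 in rTMS_MSC relative to MSC, rTMS_MSC relative to OGDR and MSC relative to OGDR. DESeq2 called 1 in the comparison of rTMS_MSC with MSC and limma voom none in any.

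Of 18 tested factors of complex IV, 2 rose and 1 fell in rTMS_MSC relative to MSC, 2 rose and 4 fell relative to OGDR, and 1 rose and 3 fell in MSC relative to OGDR, or 16.7%, 33.3% and 22.2%. These shares were near those of all tested genes. Higd1a, a hypoxia-induced factor of complex IV, had 75.8 ± 7.51 CPM in rTMS_MSC, 61.0 ± 4.37 CPM in MSC and 92.7 ± 4.65 CPM in OGDR (SD, n = 4 each). It rose by 0.31 in rTMS_MSC relative to MSC, and fell in rTMS_MSC (-0.29) and in MSC (-0.60) relative to OGDR. The related Higd2a rose by 0.27 in rTMS_MSC relative to MSC, and the copper chaperone Cox11 fell by 0.46 on the log2 scale. Cmc2 had 49.3 ± 7.56 CPM in rTMS_MSC, 43.4 ± 1.92 CPM in MSC and 24.8 ± 3.39 CPM in OGDR, and rose in both treated groups relative to OGDR (0.99 and 0.81), while Coa7 fell in MSC (-0.34). Named after their values were seen, Coa3 rose (0.25) and Cox10 and Coa7 fell (-0.24 and -0.27) in rTMS_MSC relative to OGDR, and Cox10 fell in MSC relative to OGDR (-0.24). Of 6 factors of complex V, Atpaf2 rose in rTMS_MSC relative to MSC (0.28), a call kept only without MSC 4 or rTMS_MSC 4 when each library was left out in turn.

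Electron carriers and enzymes that feed the chain were mixed. For these genes, the complex IV factors above, and the citric acid cycle and transcription factors below, calls are of the fit of all libraries. In rTMS_MSC relative to MSC that fit called 2475 of all tested genes. It was 1480 without rTMS_MSC 3, 1313 without MSC 1 and 1006 without MSC 3, so calls near the threshold are uncertain. Cycs, the somatic cytochrome c, had 34.1 ± 0.736 CPM in rTMS_MSC and 27.8 ± 3.50 CPM in MSC and rose by 0.29 ± 0.10 (adjusted p = 0.0495), while Gpd2, which passes electrons from glycerol 3-phosphate to ubiquinone, fell by 0.41 on the log2 scale (adjusted p = 0.00577). Of 10 such genes 2 rose and 1 fell in rTMS_MSC relative to MSC, 3 rose (Prodh, 2.23; Sqor, 0.31; Cyc1, 0.21) and 1 fell (Gpd2) relative to OGDR, and 1 rose (Prodh) and 2 fell (Dhodh, -0.46; Ndufab1, -0.22) in MSC relative to OGDR. Those that passed made up 30%, 40% and 30%, beside 18.1%, 32.4% and 20.2% of all tested genes. Of 13 genes for ubiquinone synthesis Coq3 rose in rTMS_MSC relative to MSC (0.32) and fell in MSC relative to OGDR (-0.26), and Coq8b and Pdss1 rose in rTMS_MSC relative to OGDR (0.28 and 0.32). The share that passed was 7.69% in rTMS_MSC relative to MSC and in MSC relative to OGDR, and 15.4% in rTMS_MSC relative to OGDR.

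In the citric acid cycle, 3 of 15 genes rose in rTMS_MSC relative to MSC (Mdh2, 0.22; Mdh1, 0.18; Suclg1, 0.23), 6 rose and 1 fell relative to OGDR (among them Idh3g, 0.28, Idh2, 0.25, and Ogdh, 0.24), and 2 rose in MSC relative to OGDR (Ogdh and Idh2). The 1 that fell was Dld (-0.18), named after its value was seen. Genes of the cycle that passed made up 20%, 46.7% and 13.3%, beside 18.1%, 32.4% and 20.2% of all tested genes. Carriers of ATP and phosphate had 3 of 6 tested genes higher in rTMS_MSC than in MSC, among them the outer membrane channel Vdac2 (0.19) and the ADP/ATP carrier Slc25a5 (0.17). Vdac2 fell in MSC relative to OGDR (-0.14). Of these 6 carrier genes 50% passed in rTMS_MSC relative to MSC and 16.7% in each of the other comparisons.

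Transcription factors known to act on respiratory genes were mixed. Nrf1 had 40.5 ± 2.78 CPM in rTMS_MSC, 39.8 ± 2.97 CPM in MSC and 43.8 ± 3.00 CPM in OGDR, and none of its comparisons passed (log2 fold change 0.03 ± 0.08 in rTMS_MSC relative to MSC, adjusted p = 0.857). Gabpa (-0.12 ± 0.09), Esrra (-0.15 ± 0.20) and Tfam (0.07 ± 0.07), the factor that packages and transcribes mitochondrial DNA, did not pass either, and Ppargc1a, a coactivator of mitochondrial biogenesis, fell under the filter and was not tested. Pprc1, a coactivator of the same family, fell in rTMS_MSC relative to MSC (-0.20, adjusted p = 0.0385) and relative to OGDR (-0.36). Yy1 fell in rTMS_MSC relative to MSC (-0.33) and rose in MSC relative to OGDR (0.22). Myc rose in rTMS_MSC relative to MSC (0.35 ± 0.08, adjusted p = 0.00498) and fell in MSC relative to OGDR (-0.29). Hif1a had 115 ± 20.3 CPM in rTMS_MSC, 146 ± 17.1 CPM in MSC and 205 ± 14.7 CPM in OGDR. It fell in rTMS_MSC relative to MSC (-0.35) and to OGDR (-0.83), and in MSC relative to OGDR (-0.49).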

How the data were processed

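RNA of 12 libraries was captured with oligo(dT) and primed with random primers, per the labels' protocols. Per the submitters' processing notes, HISAT2 2.1.0, HTSeq 0.11.2, DESeq2 1.40.1 and the rat build mRatBN7.2 were used, and no strand setting is recorded there. The authors deposited 1 table of raw counts per gene, and its 5 summary lines were left out, among them reads in no feature (51.7 to 52.7%). Although the series text mentions 20 samples and a microarray, the samples' labels are those of 12 sequenced libraries.

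Counts were analysed in R 4.3.3 with edgeR 4.0.16: filterByExpr (minimum count 10, minimum total 15), which kept 13692 of 20776 genes with a count, TMM scaling, and glmQLFit and glmQLFTest on 12 libraries with a mean per group. P-values were two-sided, with Benjamini-Hochberg adjustment across the tested genes and a threshold of 0.05. The standard error is the log2 fold change divided by the root of F. Log2 CPM for library medians used a prior count of 2. The biological coefficient of variation was 0.0937. The script was tested on simulated data. Replicates differed beyond sampling noise, so none was merged.

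Members and gene lists were chosen with earlier results of these data known. Named were the members that passed, the smallest p per complex and comparison, a panel of isoforms and catalytic subunits, up to 3 passing genes of each other list per comparison, and 5 regulators (Ppargc1a, Nrf1, Gabpa, Esrra and Tfam). Promoters came from RefSeq (GRCr8), matched by symbol. Alternatives were other scalings, filters, DESeq2 1.42.0, limma 3.58.1 voom, a fit of only 8 libraries, a block for replicate number, robust shrinkage and leaving out libraries. Transcript lengths and proteins were not used here. Some genes are not reported here.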

Additional observations from a re-analysis of the deposited data

Results flagged for a closer look

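In 17 of 213 groups of 4 values (the 65 named members, the 5 complexes and the sum of all, in 3 conditions), the highest or lowest library lay further from the nearest other than Dixon's limit for 4 values allows. Chance flags about 1 in 20 groups, but these groups are not independent. They share the same libraries and the sums are made of members, so that rate is no yardstick for the 17 flags. Of the 17, 11 were the same library, rTMS_MSC 3. Its high values were 5836 summed CPM for complex V (the others 4887 to 5039), 176.5 CPM for Ndufa4 (150.3 to 152.5), 88.74 CPM for Ndufb2 (71.21 to 73.4), 90.54 CPM for Ndufb4 (69.25 to 72.82), 88.42 CPM for Ndufs3 (72.77 to 75.44) and 101.6 CPM for Ndufs7 (68.6 to 72.71). In complexes IV and V they were 428 CPM for Cox5b (282.5 to 302.4), 208.8 CPM for Cox6b1 (155.7 to 163.5), 1768 CPM for Atp5f1b (1595 to 1614), 169.3 CPM for Atp5if1 (112.8 to 122.4) and 296.2 CPM for Atp5mc2 (223.6 to 234.6). In MSC, library 3 was low for Ndufv1 (105.3 CPM, the others 113.7 to 115.4), Uqcrh (64.05 CPM, 73.38 to 75.28) and Cox6c (97.29 CPM, 110.5 to 111.8), MSC 1 was low for Ndufa9 (100.2 CPM, 109.6 to 109.8) and MSC 2 was high for Uqcr10 (64.87 CPM, 56.11 to 57.23). In OGDR, library 2 was high for Ndufv1 (134.3 CPM, 120.2 to 122).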

How the results depend on the processing

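No member called in the fit of all libraries changed sign under any alternative run, while uncalled values near 0 did. Of the summary values over all alternatives 285 stayed within their limits and 27 moved; of the single genes' values 3966 kept their side of the threshold, 306 lost it and 72 gained it. Leaving out 1 library at a time gave 15 to 55 members higher and 0 to 1 lower in rTMS_MSC relative to MSC. All genes called there numbered 1006 to 3196. In rTMS_MSC relative to OGDR 13 to 33 members were higher and 0 to 2 lower (all genes called 3461 to 4683). In MSC relative to OGDR 1 to 10 members were lower (all genes called 2243 to 3451). The fit of the 8 compared libraries called 29 members higher in rTMS_MSC than in MSC and 9 lower in MSC than in OGDR, and limma voom called 11 lower there. With rTMS_MSC 3 and MSC 3 both left out (added after the data were seen), 4 members were higher and 0 lower in rTMS_MSC than in MSC (677 genes of all called, median member log2 fold change 0.14), and 1 was higher in MSC than in OGDR. The cause was not tested; fewer libraries also carry less power. Scaling by library totals gave 41 and upper quartile scaling 55 higher members in rTMS_MSC than in MSC. Scaling moved the median of all genes by under 0.1 log2 units.

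Correlations between libraries were taken on log2 CPM after each gene's group mean was subtracted. These deviations correlated by -0.205 to 0.128 between same-numbered libraries of different groups. Whether libraries of the same number shared a batch was not tested. In the pair of MSC and OGDR every library correlated best with its own number, but only 1 of those 4 correlations was over 0.1. A replicate block gave 34 members higher and 1 lower in rTMS_MSC relative to MSC, 17 higher in rTMS_MSC relative to OGDR and 4 lower in MSC relative to OGDR. Members under 10 CPM in every library, such as Cox6a2 and Ndufs6, rest on the fewest counts.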
